A study of Mus musculus with 6 samples.

Results

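The C-type lectin receptors described here are 10 genes of sensing receptors on myeloid cells and platelets: Clec7a, Clec4e, Clec4n, Clec5a, Clec12a, Clec4a2, Clec4a1, Clec4a3, Clec10a and Clec1b. They were chosen by symbol from a deposited table of 19436 genes, with no measured value in the rule, and each symbol matched 1 Ensembl gene. RNA came from fetal livers of C57BL/6 mice at embryonic day 14.5, from cells sorted for medium CD71, the transferrin receptor, and absence of Ter119, a surface protein of maturing red cells. The wild type group (also written -77+/+) had 3 libraries and the -77-/- group, in which both copies of the -77 element are lost, had 3. The element is an enhancer of the gene for GATA2, which directs transcription in early blood progenitors. The labels gave no treatment, litter, sex or batch, and did not say whether a library came from 1 embryo or from pooled livers. The p-values therefore measure the spread between these libraries, which may in part be technical.

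C-type lectin receptors carry a carbohydrate-recognition-like domain outside the cell and read microbial sugars and lipids, crystals or ligands on other cells. Some activate the cell: Dectin-1 and CLEC-2 carry a single tyrosine motif of their own, and Mincle, Dectin-2 and MDL-1 borrow an ITAM from an adaptor (FcR gamma, the product of Fcer1g, or DAP12, the product of Tyrobp). The kinase SYK binds the phosphorylated motif, and the CARD9, BCL10 and MALT1 complex carries the signal to NF-kappaB. Others, such as MICL and DCIR, carry an inhibitory ITIM that recruits the phosphatases SHP-1 and SHP-2. Most are known from monocytes, macrophages, dendritic cells and neutrophils. CLEC-2 is known chiefly from platelets and megakaryocytes.

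Depth ran from 16516338 to 20468899 reads per library, and 3 reads, taken as the floor, corresponded to 2.56 to 3.42 normalized reads. Gata2 itself had 128, 87.8 and 61.5 normalized reads in the wild type libraries and 74.2, 26.2 and 34.2 in the -77-/- libraries. The genotypes overlapped, and the log2 fold change of -1.10 (SE 0.60) did not pass limma's test (adjusted p = 0.183). The deletion lies outside the transcript, so this level checks the labels only indirectly. The labelled cell type was erythroid precursor. The defining erythroid genes were present in wild type, where 9 markers summed to between 30226 and 33194 normalized reads, against 2935 to 6547 in -77-/-. Tfrc, the gene of CD71, accounted for means of 14576 and 3307 of these. All 9 fell with a limma adjusted p below 0.05, as did 15.2% of all tested genes. Without -77-/- replicate 3, Gata1 and Hbb-b1 did not pass (limma adjusted p = 0.0585 and 0.0588).

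The stretches of 250 bases before the RefSeq start sites of 4 receptor genes are printed because these genes rose in -77-/- libraries by very different amounts. Clec7a had 2 starts listed, and the first was used. They come from RefSeq on GRCm38.p6, on the strand of the gene: Clec7a at chr6:129472780-129473029 (minus), Clec12a at chr6:129349994-129350243 (plus), Clec5a at chr6:40585806-40586055 (minus) and Clec4e at chr6:123289872-123290121 (minus). Capitals mark matches, on either strand, to any of 5 short motifs spelled out in the next paragraph.
Clec7a: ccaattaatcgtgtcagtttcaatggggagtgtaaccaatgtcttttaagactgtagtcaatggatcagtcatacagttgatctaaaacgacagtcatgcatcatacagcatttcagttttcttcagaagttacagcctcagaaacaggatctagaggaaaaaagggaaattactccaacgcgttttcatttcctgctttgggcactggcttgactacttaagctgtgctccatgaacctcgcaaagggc
Clec12a: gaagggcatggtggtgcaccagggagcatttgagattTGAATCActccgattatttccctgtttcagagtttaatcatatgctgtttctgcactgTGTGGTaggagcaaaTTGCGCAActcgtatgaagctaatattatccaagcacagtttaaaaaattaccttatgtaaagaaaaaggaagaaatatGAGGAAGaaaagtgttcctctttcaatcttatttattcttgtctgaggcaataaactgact
Clec5a: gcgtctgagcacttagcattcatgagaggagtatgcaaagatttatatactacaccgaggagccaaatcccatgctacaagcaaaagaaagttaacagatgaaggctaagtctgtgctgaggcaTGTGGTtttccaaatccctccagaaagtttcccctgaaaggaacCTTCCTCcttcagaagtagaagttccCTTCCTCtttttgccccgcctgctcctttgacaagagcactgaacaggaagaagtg
Clec4e: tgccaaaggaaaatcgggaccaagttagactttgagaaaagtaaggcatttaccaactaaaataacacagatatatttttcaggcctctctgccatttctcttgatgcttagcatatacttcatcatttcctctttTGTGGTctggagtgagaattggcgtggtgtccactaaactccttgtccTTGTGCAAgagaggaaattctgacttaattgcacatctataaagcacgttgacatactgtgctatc

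Promoters were listed for 8 of the 10 genes and searched from 250 bases before to 50 bases after the start. GAGGAAG, a PU.1-type ETS motif, was in 3 of the 8 promoters and in 13.6% of all 32851 promoters listed. It stood once in Clec12a, at -61 to -55, once in Clec4a1 and at 2 places in Clec5a, at -82 to -76 and -56 to -50, on the strand opposite to the gene. TTGCNNAA, a C/EBP motif, was in 2 of the 8 promoters (Clec12a and Clec4e) and in 10.8% of all. TGTGGT, the RUNX motif, was in 5 of the 8 promoters (Clec12a, Clec4a1, Clec4a3, Clec4e and Clec5a) and in 16.8% of all. The GATA motif, spelled AGATAA, was in Clec1b alone among the 8, at 37 to 42 bases after the start, and in 11.2% of all. TGANTCA, the AP-1 motif, was in Clec12a and Clec4a2 and in 7.81% of all. The Clec7a window held none of the 5 sets of letters. Clec7a and Clec4a3 had 2 starts listed each, and only the first was searched, whereas the 32851 promoters include every listed start. A match here describes letters in a window and not binding.

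Of the 10 receptor genes, 7 were called higher in -77-/- libraries, none was called lower, 2 were not called and 1, Clec10a, was too low to be tested. A call was an adjusted p below 0.05 in limma's test over 15821 genes (Benjamini-Hochberg), and 32.2% of all tested genes were called, 16.9% as higher and 15.2% as lower. Over 14 alternative settings the count of receptor genes called higher ran from 5 to 7, and Clec7a, Clec12a, Clec4a1, Clec4e and Clec5a were called in each. The median log2 fold change was 3.55 over the 9 tested receptor genes (3.34 with Clec4a3, which had no read in wild type, at its lower bound) and 0.10 over all tested genes. Testing required a mean of 10 in the higher genotype only, so Clec4e, Clec4n and Clec4a3 entered this median through -77-/- alone. Clec1b entered through wild type alone. The others had log2 fold changes of 5.11 (Clec7a), 3.55 (Clec4a1), 2.28 (Clec5a), 1.23 (Clec4a2) and 1.21 (Clec12a). The 7 called genes were also those in which every -77-/- library lay above every wild type library, a separation found in 25% of all tested genes. Of the 10, 8 had an adjusted p below 0.05 in the authors' deposited table, all with a positive log2 fold change, and the exceptions were Clec10a (0.373) and Clec1b (0.713). Of the 17124 genes with an adjusted p in that table, 2805 were below 0.05 with a positive change and 2519 with a negative change. In bulk RNA, more cells of a type and more RNA per cell cannot be told apart, and this holds for every result that follows.

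**Figure D1:**
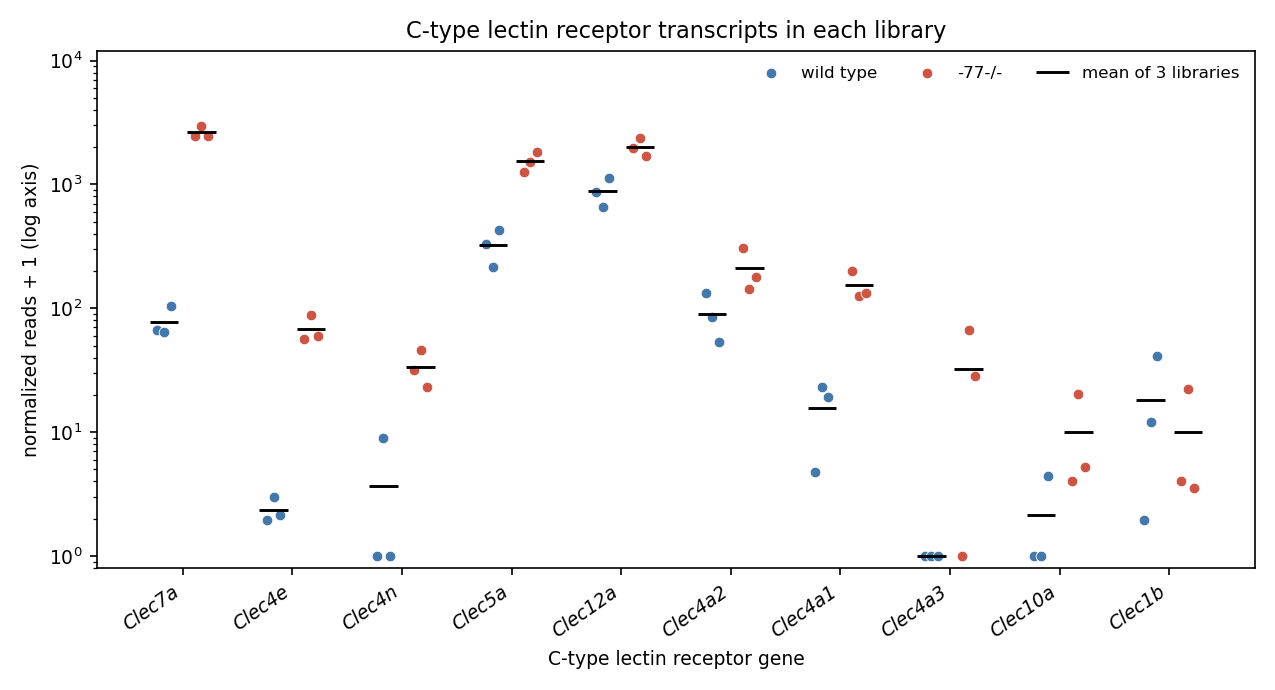
Normalized reads plus 1 (log axis) of the 10 C-type lectin receptor genes in each of 3 wild type and 3 -77-/- libraries; points are libraries and bars are group means. Clec7a moved from a mean of 77.0 to 2632, whereas the points of Clec4a3, Clec10a and Clec1b overlap between genotypes.

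Among the activating receptors, Clec7a encodes Dectin-1, the receptor for fungal beta-glucan, and lies at chr6:129461591-129472779 on the minus strand (GRCm38). It had 65.7, 62.9 and 103 normalized reads in the wild type libraries and 2447, 2977 and 2473 in the -77-/- libraries. Every -77-/- library lay far above the highest wild type library, and the 3 libraries of each genotype were close to each other. The mean rose from 77.0 ± 22.2 to 2632 ± 298 (SD, n = 3 each), a log2 fold change of 5.11 (SE 0.23, 95% interval 4.61 to 5.60, limma adjusted p = 8.4e-10). Of the 15821 tested genes, 127 had a larger increase on this scale. The authors' deposited table gave a log2 fold change of 5.10 with an adjusted p of 2.88e-128.

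Clec4e encodes Mincle, which binds the mycobacterial cord factor and signals through FcR gamma. It was close to unread in wild type, at 0.938, 1.996 and 1.14 normalized reads (4 reads in all), and had 55.9, 86.5 and 58.9 in -77-/- (213 reads). The log2 fold change was 4.85 (SE 1.07, 95% interval 2.56 to 7.14, limma adjusted p = 0.0027). Every wild type library was under its floor of 3 reads, so the ratio is given from reads: 49.3, with an exact 95% interval of 19.0 to 182 that covers counting error only.

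Clec4n encodes Dectin-2, a receptor for fungal alpha-mannan that also uses FcR gamma. It was listed at 0, 7.98 and 0 normalized reads in wild type and at 30.5, 44.7 and 22.2 in -77-/-. The groups did not overlap, but 2 wild type libraries had no read and the third held all 8. The log2 fold change was 3.95 (SE 1.31, 95% interval 1.15 to 6.76, limma adjusted p = 0.0313). The call was lost with limma-voom (adjusted p = 0.0572), with edgeR (0.141), with DESeq2 (0.0609) and on removal of any of 5 of the 6 libraries (0.0521 to 0.132), the exception being wild type replicate 2. Over all alternatives the adjusted p ranged from 0.0161 to 0.141.

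Clec5a encodes MDL-1, which signals through DAP12. It had 330, 215 and 424 normalized reads in wild type and 1256, 1515 and 1822 in -77-/-. The lowest -77-/- library was well above the highest wild type library. The mean rose 4.74-fold, from 323 ± 105 to 1531 ± 283 (SD, n = 3 each), a log2 fold change of 2.28 (SE 0.24, 95% interval 1.77 to 2.79, limma adjusted p = 4.1e-06).

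The inhibitory receptors Clec12a and Clec4a2 had log2 fold changes of 1.21 and 1.23. Both were above the floor of 3 reads in every wild type library, as were Clec7a, Clec5a and Clec4a1. Clec12a encodes MICL, an ITIM receptor found on myeloid cells. Its normalized reads were 866, 652 and 1127 in wild type and 1950, 2388 and 1702 in -77-/-, with no overlap. The mean rose 2.28-fold, from 882 ± 238 to 2013 ± 347 (SD, n = 3 each), a log2 fold change of 1.21 (SE 0.19, 95% interval 0.80 to 1.63, limma adjusted p = 2.5e-04).

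Clec4a2 encodes DCIR, the ITIM receptor of dendritic cells and other myeloid cells. It had 132, 83.8 and 52.4 normalized reads in wild type and 304, 142 and 179 in -77-/-, so the highest wild type library almost reached the lowest -77-/- library. The log2 fold change was 1.23 (SE 0.44, 95% interval 0.29 to 2.18, limma adjusted p = 0.0440). The call was lost with limma-voom (adjusted p = 0.0688) and edgeR (0.0836). It was also lost without wild type replicate 2 (0.0802), wild type replicate 3 (0.107), -77-/- replicate 1 (0.186) or -77-/- replicate 3 (0.0974), and the adjusted p ranged from 0.0292 to 0.186 over all alternatives. Of the 50-base stretches of its annotated transcripts, 6.83% also occurred in transcripts of other genes, mostly the neighbouring Clec4a4 and Clec4b1, so reads of these genes could have been counted as Clec4a2.

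Clec4a1 and Clec4a3 encode DCIR4 and DCIR3, close mouse relatives of DCIR. Clec4a1 had 3.75, 22.0 and 18.2 normalized reads in wild type (42 reads in all) and 200.3, 125 and 131 in -77-/- (479 reads). It rose in each -77-/- library, with a log2 fold change of 3.55 (SE 0.75, 95% interval 1.95 to 5.15, limma adjusted p = 0.0019). Clec4a3 had no read in any wild type library and was listed at 0, 66.1 and 27.3 normalized reads in -77-/-. One -77-/- library thus matched wild type, and the other two held 68 and 32 reads. The mean of -77-/- was at least 10.1-fold higher, taken against 3 reads in each wild type library. The test did not call Clec4a3 (log2 fold change 3.63, SE 1.74, limma adjusted p = 0.128), although DESeq2 did (0.0042), as did the authors' deposited table (adjusted p = 0.00825). Without -77-/- replicate 1, the library at 0, the adjusted p was 0.0165.

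Clec10a and Clec1b stayed low. Clec10a encodes MGL1, a receptor for galactose and N-acetylgalactosamine on macrophages and dendritic cells. It lies on chromosome 11, whereas the other 9 genes lie on chromosome 6. It was listed at 0, 0 and 3.42 normalized reads in wild type and at 3.05, 19.4 and 4.27 in -77-/-. Most of the 28 -77-/- reads came from 1 library, and the lowest -77-/- library was below the highest wild type library. The ratio of reads was 8.64 (exact 95% interval 2.67 to 44.4, counting error only), and without a filter on low values the adjusted p was 0.238. Of its 50-base stretches, 9.02% were shared with other genes, nearly all with the neighbouring Mgl2, which had 68.5 ± 18.2 normalized reads in wild type and 48.7 ± 32.2 in -77-/-.

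Clec1b encodes CLEC-2, the podoplanin receptor of platelets. It had 0.938, 11.0 and 39.9 normalized reads in wild type and 3.05, 21.4 and 2.56 in -77-/-. The libraries within a genotype differed by more than the genotypes did, and the groups overlapped. The log2 fold change was -0.52 (SE 1.43, 95% interval -3.57 to 2.53, limma adjusted p = 0.811), an interval that allows a large change in either direction. Without wild type replicate 3, the highest library, the means were 5.96 in wild type and 9.0 in -77-/-, which is the opposite direction and below the filter for a test. Its 3' end overlaps the start of Clec9a on the same strand, and 3.23% of its 50-base stretches were shared, mostly with Clec9a. Clec9a, the dendritic cell receptor for exposed actin filaments, was as uneven, at 40.7 ± 51.1 and 24.8 ± 20.7 normalized reads.

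**Figure D2:**
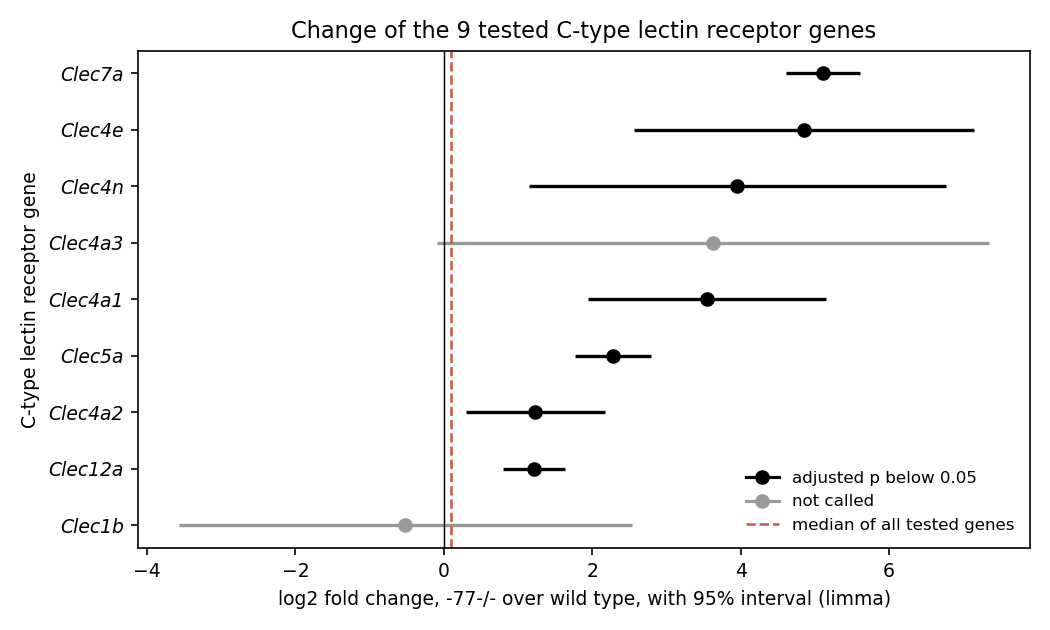
Log2 fold change (-77-/- over wild type, limma, log2(value + 1) scale) with 95% interval for the 9 tested C-type lectin receptor genes; black marks an adjusted p below 0.05 and the dashed line is the median of all tested genes, 0.10. Clec7a, at 5.11, has a narrow interval, and the interval of Clec1b spans zero on both sides.

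The order of the levels changed between genotypes. Levels were compared per kilobase of the longest protein-coding transcript of each gene (GENCODE M21). In wild type Clec12a was highest, at 352 ± 95.2 normalized reads per kb, followed by Clec5a at 86.2 ± 28.0. Clec4a2 (36.1 ± 16.2) and Clec7a (33.8 ± 9.73) came next and overlapped. Clec1b, Clec4a1, Clec4n, Clec4e and Clec10a followed, each overlapping its neighbour in the order, and Clec4a3 was at 0.

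In -77-/- Clec7a was highest, at 1156 ± 131 normalized reads per kb, followed without overlap by Clec12a at 805 ± 139 and Clec5a at 409 ± 75.6. Clec4a1 (97.6 ± 26.8) and Clec4a2 (84.0 ± 34.2) overlapped. Below them Clec4e, Clec4n and Clec4a3 lay between 24.0 and 26.7, and Clec1b and Clec10a were lowest, with each of these overlapping its neighbour. When all annotated exons were used as the length, retained introns included, Clec12a in -77-/- became 364 ± 62.8 and overlapped Clec5a at 399 ± 73.8, and Clec7a stayed highest at 998 ± 113. In wild type Clec12a and Clec5a stayed highest on that scale.

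The summed level of the 10 genes per kb rose 4.92-fold, from 537 ± 136 to 2640 ± 271 (SD, n = 3 each), and its make-up changed. Clec12a made up 66.6%, 63.4% and 66.2% of the sum in the wild type libraries and 31.3%, 32.3% and 27.5% in the -77-/- libraries. The share of Clec7a went the other way, from 5.55%, 6.73% and 6.62% to 43.1%, 44.3% and 43.9%. Both shares were far apart between genotypes and close within them. The share of Clec5a was 15.8% ± 1.65 in wild type and 15.6% ± 3.51 in -77-/-. With all annotated exons as the length, the sum rose 6.26-fold. On that scale the share of Clec12a was 49.7% ± 2.29 in wild type and 18.2% ± 1.89 in -77-/-, that of Clec7a 9.13% ± 1.09 and 49.97% ± 1.31, and that of Clec5a 25.97% ± 3.05 and 20.1% ± 4.09.

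**Figure D3:**
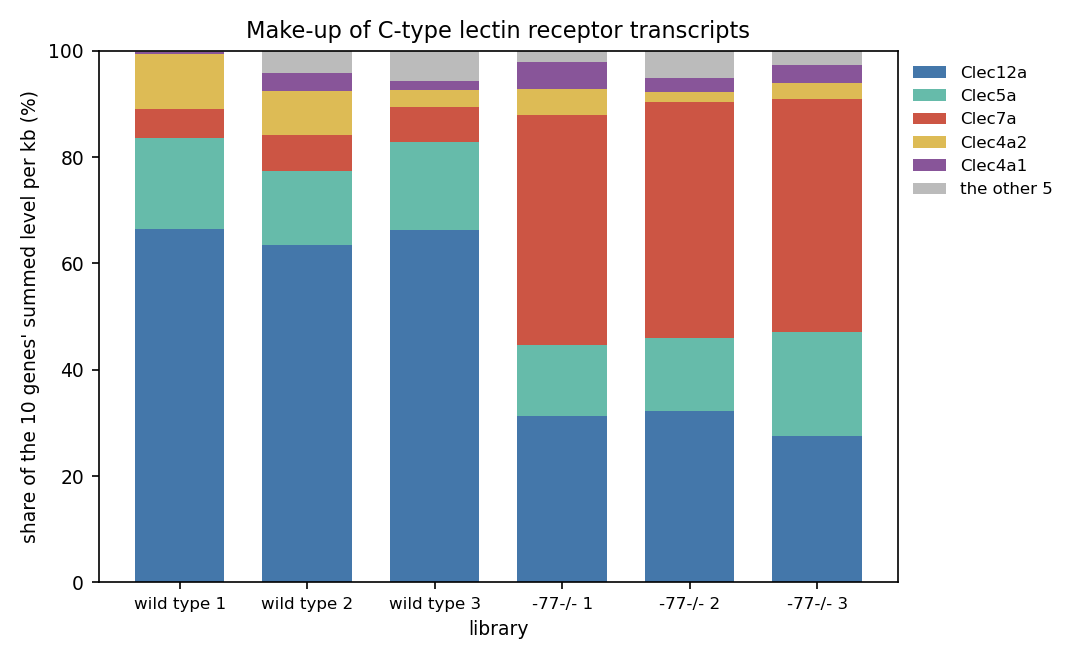
Share (%) of the 10 C-type lectin receptor genes' summed level per kb in each library, stacked by gene. Clec12a takes 63.4% to 66.6% of the sum in wild type, and Clec7a takes 43.1% to 44.3% in -77-/-.

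Ratios between receptors within a library were compared for 4 pairs, which do not depend on the scaling of the library. The log2 ratio of Clec7a to Clec12a per kb was -3.38 ± 0.18 in wild type and 0.53 ± 0.13 in -77-/-, a difference of 3.91. Clec7a against Clec5a differed by 2.84, Clec5a against Clec12a by 1.07 and Clec4a1 against Clec4a2 by 2.45, each higher in every -77-/- library than in any wild type library. For each pair the exact two-sided permutation test gave p = 0.1, also after adjustment over the 4 pairs, which is the smallest value that 3 against 3 libraries allow. These pairs were chosen after the values were seen.

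The genes whose levels followed the receptors most closely were sought among 15812 tested genes by the root mean square difference of centred log2(value + 1) over the 6 libraries. For Clec7a these were Csf1r, the macrophage growth factor receptor (0.24), Id1, an inhibitor of basic helix-loop-helix factors (0.25), and Rassf4 (0.29). For Clec12a they were A230004M16Rik (0.08), Pld1, phospholipase D1 (0.09), and Cdk14 (0.10). For Clec5a they were Trio (0.09), BC005764 (0.11) and Igf2bp2, an mRNA binding protein (0.14). The libraries share their genotype, so this likeness describes 6 points in 2 groups.

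Of the 10 genes, 8 sit in 2 clusters on chromosome 6, and 6 of these 8 were called higher. Over all tested genes 16.9% were called higher, and the counts of members and neighbours below stand beside that share. The Clec4 cluster holds 5 of them within 368 kb, from Clec4a1 at chr6:122921848-122934619 to Clec4e at chr6:123281789-123289870 (GRCm38). Of the 5, 4 were called higher, the exception being Clec4a3. Within the cluster or 100 kb around it, the table held 5 other protein-coding genes. C3ar1, the receptor for complement C3a, was called higher (19.7 ± 16.1 to 90.4 ± 42.9 normalized reads, limma adjusted p = 0.0397), as was Necap1, an endocytosis factor (226 ± 111 to 647 ± 124, 9.5e-04). Foxj2 and Clec4d were not called, and Clec4b2 was too low to be tested, with 14 reads in wild type and 1 in -77-/-. Clec4d, the partner of Mincle, had 8.44, 0 and 23.9 normalized reads in wild type and 47.8, 38.9 and 12.8 in -77-/- (adjusted p = 0.199).

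The second cluster spans 130 kb, from Clec12a at chr6:129342691-129365303 over Clec1b at chr6:129397297-129409335 to Clec7a. Clec7a rose by 5.11 on the log2 scale and Clec12a by 1.21, while Clec1b between them was not called. Of 6 other genes in the table within 100 kb, 1 was called higher, near the 16.9% of all tested genes. That gene was Cd69, an early activation marker with a C-type lectin domain. It went from 181 ± 40.5 to 1718 ± 156 normalized reads (log2 fold change 3.26, limma adjusted p = 1.8e-08). Olr1, the receptor for oxidized low density lipoprotein that lies beside Clec7a, had 260 ± 76.3 and 240 ± 35.1 (adjusted p = 0.855). Clec9a, Clec1a and Gabarapl1 were not called either, and Tmem52b was too low to be tested. Clec5a lies alone at chr6:40574894-40585821. Its neighbours in the table were Ssbp1, a mitochondrial DNA binding protein that fell by 0.51 on the log2 scale (adjusted p = 0.0077), and Mgam, which was not called.

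**Figure D4:**
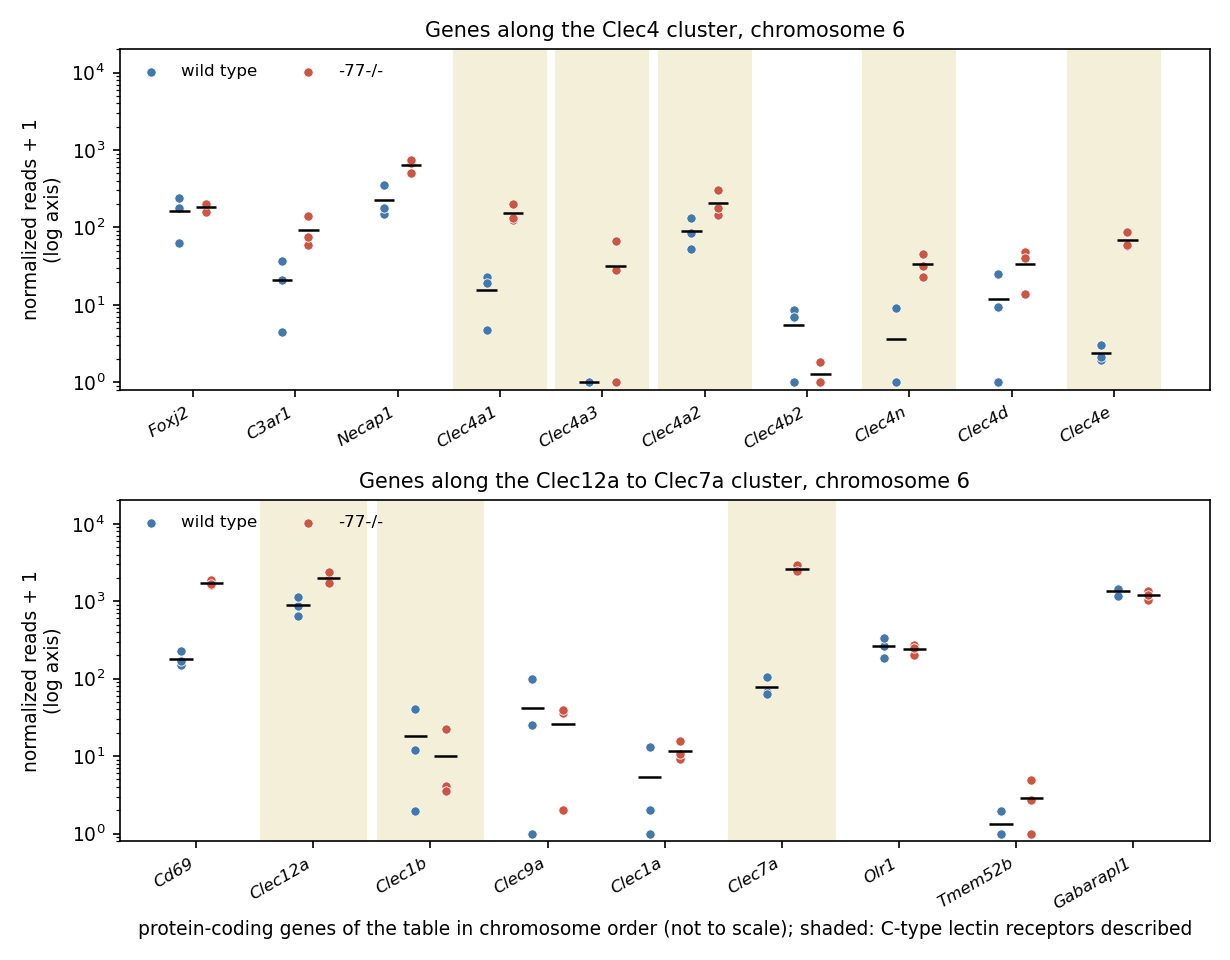
Normalized reads plus 1 (log axis) of the protein-coding genes in the table along 2 clusters on chromosome 6, in chromosome order and not to scale; points are libraries, bars are group means, and shading marks the C-type lectin receptors described. Clec7a rose from 77.0 to 2632 beside Olr1, which had 260 and 240.

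Other genes with a C-type lectin domain were more mixed. Of 45 in the table from a list of 72, 34 were tested, 12 were called higher, 2 lower and 20 were not called, with a median log2 fold change of 2.04 (2.02 with the gene that had no wild type read at its bound). Vcan, Klrk1, Clec2d, Clec2i and others had means below 10 in wild type, and Clec2h and Prg3 in the other genotype. Such genes entered this median through the higher genotype alone, which can move it. The count called higher ran from 8 to 13 over the alternatives. Over all tested genes 16.9% were called higher and 15.2% lower. The larger increases were those of Vcan, a matrix proteoglycan of monocytes (5.52 ± 5.07 to 264 ± 165 normalized reads), Klrk1, the NKG2D receptor (2.70 ± 0.37 to 158 ± 12.9), Clec2d (4.69 ± 8.12 to 108 ± 30.6) and Clec2i (8.58 ± 9.48 to 162 ± 62.1). The limma adjusted p ran from 1.6e-04 for Klrk1 to 0.0027 for Clec2d, and with limma-voom that of Vcan was 0.0611. Prg2 and Prg3, the eosinophil major basic proteins, fell, from 962 ± 510 to 13.6 ± 0.72 and from 146 ± 86.3 to 1.23 ± 0.41 (adjusted p = 1.3e-07 and 4.2e-04). Olr1 and Cd209c had the highest levels among those not called (adjusted p = 0.855 and 0.376).

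The signalling genes downstream of the receptors rose in most cases. Of 30 adaptors, kinases and CARD9 complex genes, all tested, 21 were called higher, 1 lower and 8 were not called. Of all tested genes, 16.9% were called higher and 15.2% lower. The list's median log2 fold change was 1.90. Hcst, Src and Map3k14, with means below 10 in wild type, entered this median through the higher genotype alone. Fcer1g, the adaptor of Mincle and Dectin-2, rose from 39.4 ± 16.8 to 544 ± 46.4 normalized reads (log2 fold change 3.84, SE 0.39, limma adjusted p = 2.1e-06). Map3k14, the NIK kinase, and Rel, an NF-kappaB subunit, rose by 5.50 and 3.20 on the log2 scale. Rela, the p65 subunit of NF-kappaB, fell from 830 ± 7.87 to 461 ± 21.5 (log2 fold change -0.85, adjusted p = 0.0014). Btk was not called (adjusted p = 0.0927), but it was without wild type replicate 3 (0.0209). Named after their values were seen, Syk rose from 627 ± 46.2 to 3333 ± 145, Card9 from 109 ± 23.4 to 659 ± 98.1, Malt1 from 289 ± 88.8 to 929 ± 162 and Tyrobp from 164 ± 36.3 to 1468 ± 102. The receptors that use these adaptors, Clec4e, Clec4n and Clec5a, were called higher in the same libraries.

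Among 8 genes listed as restraining these receptors, 7 were tested, 5 were called higher and 2 were not. The list's median log2 fold change was 1.09, and 16.9% of all tested genes were called higher. The role of each gene was not tested. Ptpn6, which encodes SHP-1, rose from 1050 ± 220 to 3747 ± 320 normalized reads (log2 fold change 1.85, SE 0.15, limma adjusted p = 2.0e-07). Dusp1, a phosphatase of MAP kinases, rose by 1.59, Cblb, a ubiquitin ligase that targets SYK, by 1.41, and Inpp5d, which encodes the lipid phosphatase SHIP-1, by 1.09 on the log2 scale. Ptpn11, which encodes SHP-2, had 3828 ± 135 and 3467 ± 316 (adjusted p = 0.327), and Ubash3b had 247 ± 61.2 and 308 ± 38.5 (0.376).

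Genes listed as effectors of Dectin-1 and its relatives had a median log2 fold change of 3.81. Il1b, Il1rn, Cxcl2, Ccl2, Ptgs2 and Egr2 had wild type means below 10 and entered this median through -77-/- alone, which can raise it. The list also holds Pycard, Casp1, Casp8 and Cybb, and whether the receptors induced any listed gene was not tested. Of 16 in the table from a list of 24, 15 were tested, 12 were called higher, none lower and 3 were not called. The share called higher over all tested genes was 16.9%. Il6, Il10, Il12b, Il23a, Cxcl1, Csf2, Csf3 and Nos2 had no row and were not analysed here. Ptgs2, the inducible cyclooxygenase, went from 5.76 ± 8.09 to 246 ± 77.2 normalized reads (log2 fold change 5.99, SE 0.99, limma adjusted p = 2.6e-04). Ccl2, a monocyte chemokine, had no read in wild type and was at least 19.95-fold higher in -77-/-, against 3 reads per library. Nlrp3, an inflammasome sensor, went from 23.5 ± 19.9 to 566 ± 49.8, and Ccl3, another chemokine, from 30.2 ± 7.78 to 936 ± 195. Il12a and Cxcl2 were not called (adjusted p = 0.115 and 0.374), although Il12a was without wild type replicate 3 (0.0118) and Cxcl2 without -77-/- replicate 1 (0.0496). The count of effector genes called higher ranged from 8 to 12 over the alternatives.

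**Figure D5:**
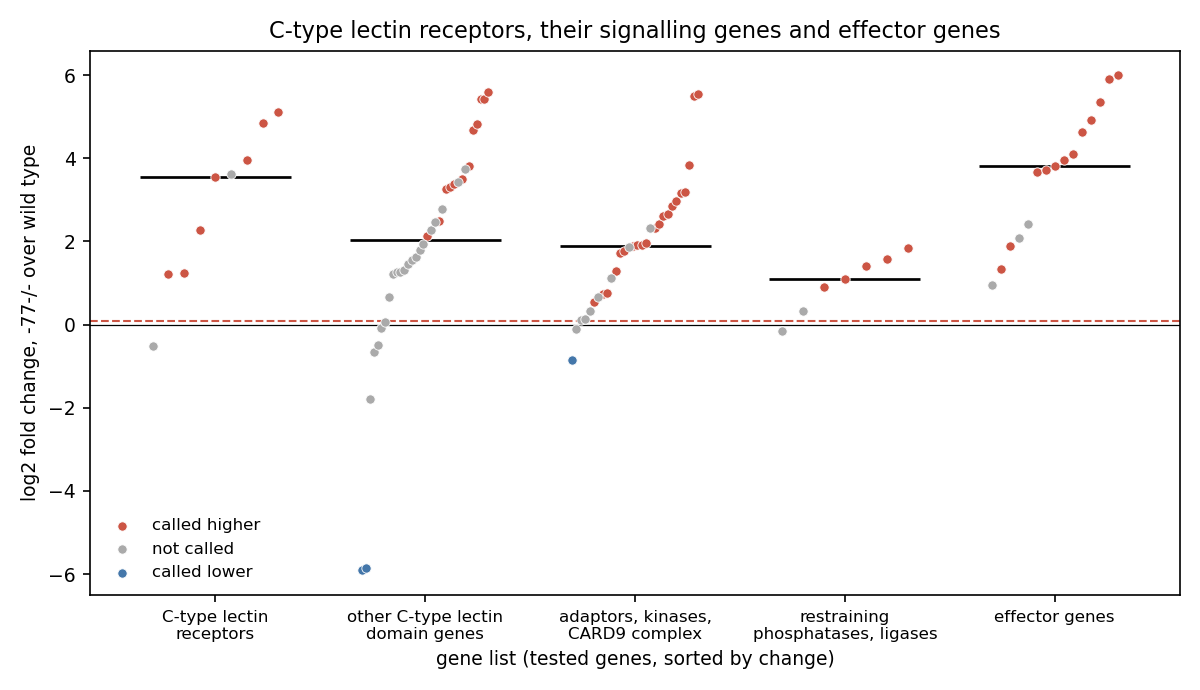
Log2 fold change (-77-/- over wild type) of every tested gene in 5 lists, sorted within each list; the bar is the list's median and the dashed line the median of all tested genes, 0.10. The medians run from 1.09 for the restraining genes to 3.81 for the effector genes, and Prg2 and Prg3 stand near -5.9. Testing required a mean of 10 in the higher genotype only, so genes below 10 in wild type entered through -77-/- alone, and the reverse. The share of such genes differs between the lists, and the restraining list has none, so the medians are not on equal terms.

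The 16 monocyte and macrophage markers in the table summed to 2135 to 3571 normalized reads in wild type and 36011 to 49476 in -77-/-. Of the 15 tested, 14 were called higher, and Cd14 was not called. Over all tested genes 16.9% were called higher and 15.2% lower. Lyz2, the lysozyme of phagocytes, had 709, 469 and 1018 in wild type and 8190, 14084 and 9488 in -77-/-. Of the 11 dendritic cell markers tested, 7 were called higher and 1 lower. Their sum went from 813 to 960 up to 3054 to 3599. Of the 10 neutrophil markers tested, 3 were called higher and 4 lower, with a median log2 fold change of -0.59. Their sum went from 13409 to 22867 up to 41253 to 45216, a rise carried by Mpo, which accounted for means of 11805 and 38959. The part of these cell types in the receptor levels was not tested.

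The marker lists of other cell types differed. Resident liver macrophage markers summed to 1431 to 1534 normalized reads in wild type and 101 to 123 in -77-/-, and Slc40a1, the iron exporter, which red cell precursors also express, accounted for means of 1466 and 71.9 of these. The macrophage scavenger receptor Cd163 had means of 7.78 and 21.2, and the complement gene C1qb of 2.33 and 10.9, and neither was called. Megakaryocyte and platelet markers, listed beside Clec1b, summed to 898 to 1337 and 728 to 988, with 1 of 11 tested called higher and 4 lower. Over all tested genes these shares were 16.9% and 15.2%. Liver endothelium markers summed to 114 to 320 and 475 to 565, NK and T cell markers to 2.28 to 54.4 and 77.8 to 117, and hepatocyte markers to 48.9 to 207 and 84.4 to 884. The endothelial sums were carried by Pecam1, which leukocytes also express (138 ± 53.7 and 449 ± 34.7), while Cdh5 and Kdr were not called. The high hepatocyte value came from -77-/- replicate 3. No marker found in the table was at 0 in all 6 libraries, and 12 listed markers had no row and were not analysed here.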

How the data were processed

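Libraries of 3 wild type and 3 -77-/- sorts were prepared with NuGEN's Ovation single cell system (10 ng total RNA each) and sequenced single-end at 50 nt, per the labels' protocols. The submitters' processing notes list Bowtie, STAR 2.5, RSEM 1.2.31, DESeq2 and the mm9 build, while their roles, the annotation and the strand setting are not given in the sources used here. In the deposited table the library columns hold a normalized signal, namely gene counts over 1 size factor per library. Each value was a whole multiple of its library's step (tolerance 0.01 of a read), so reads could be recovered. Should RSEM be their source, they are rounded estimates, and a gene listed at 0 may still have had ambiguous reads. The deposited table also holds the authors' log2 fold changes and adjusted p-values, the latter treated as a score since cells had slipped sideways in 8 of 19444 rows, which were left out.

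The test was limma 3.58.1 (R 4.3.3, trend and robust) on log2(value + 1) for 15821 genes with a mean of at least 10 in the higher genotype, with Benjamini-Hochberg adjustment at 0.05. The added 1 understates the change of low genes. A gene low in 1 genotype passed the filter only through the other, which can move the median of any list. Alternatives on the recovered reads were limma-voom, edgeR 4.0.16, DESeq2 1.42.0 and TMM scaling. Other alternatives were pseudocounts of 0.1 and 5, no filter, a mean of at least 50, and leaving out each library. Replicates are numbered in the order of the records and pair nothing. Floors and intervals describe counting error alone: without molecular identifiers, amplified reads do not count independent molecules.

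Lengths and positions come from GENCODE M21 (GRCm38) and promoters from RefSeq (GRCm38.p6), used apart from the mm9 counts. Of 236 entries in the gene lists, 189 matched a row, and the others were not analysed here. The receptors and lists were chosen with earlier results of these data known. All 10 receptors are named. From each other pathway list, up to 4 called genes with the largest change in each direction and the 2 not called with the highest mean are named, except for some genes that are not reported here. From each marker list the 3 with the highest mean were considered, and any other gene was chosen after its values were seen.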

Additional observations from a re-analysis of the deposited data

How the results depend on the processing

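Over 14 alternatives (3 other tests, TMM scaling, 2 pseudocounts, 2 filters and 6 removals of 1 library), no receptor gene with a fitted value changed direction. Clec10a was below the filter. With a mean of at least 50, Clec4a3, Clec4n and Clec1b had no fit, nor had Clec1b without wild type replicate 3, where its means were 5.96 in wild type and 9.0 in -77-/-. Clec7a, Clec12a, Clec4a1, Clec4e and Clec5a kept their call in each, with log2 fold changes of 4.98 to 5.33, 1.01 to 1.41, 2.83 to 3.97, 3.48 to 5.63 and 2.01 to 2.503. The calls of Clec4a2 and Clec4n also ended with a pseudocount of 0.1 (adjusted p = 0.0501 and 0.0559), and the cause was not tested. The fitted change of Clec4a3 ran from 2.17 to 8.01. All tested genes called ran from 3915 to 5280, and receptor genes called higher from 5 to 7, and from 5 to 6 on removal of 1 library. Receptor genes called lower were 0 throughout. Clec10a and Clec1b, at 28 reads each in -77-/-, rest on few reads. No paired analysis was possible because the labels give no replicate numbers, and those used here follow the order of the records.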
